A study of Homo sapiens with 9 samples.

Results

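The 8 genes described here, PPARA, CPT1A, CPT2, ACADVL, ACADL, ACADM, HADHA and HADHB, encode the nuclear receptor PPARα, the carnitine palmitoyltransferases and the enzymes that shorten fatty acids in mitochondria. They were chosen by gene symbol from the 60683 genes of the count table, and each symbol matched 1 gene. All 8 had counts summing to at least 10 and so were among the 22672 genes tested. RNA had been sequenced from Hep3B, a human hepatocellular carcinoma line, after 24 hours in 3 groups of 3 libraries each: DMSO vehicle at 20% O2, DMSO vehicle at 1% O2, and 32-134D, an inhibitor of hypoxia-inducible factors (HIFs), at 1% O2. All 9 libraries came from cultures of the same line, which the labels name biological replicates, so that each p-value measures the spread between replicate cultures of 1 line. Because 32-134D was not given at 20% O2 in any library, its effects under hypoxia cannot be told apart here from those it may have at any O2. The labels describe a mixture of DMEM and F12 media, whereas the study's methods describe high-glucose DMEM.

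In fatty acid oxidation, a fatty acid is first bound to coenzyme A. CPT1A, on the outer mitochondrial membrane, then passes the acyl group to carnitine, and CPT2, on the inner membrane, returns it to coenzyme A inside the mitochondrion. There the acyl-CoA dehydrogenases (ACADVL, ACADL and ACADM, for very long, long and medium chains) and the mitochondrial trifunctional protein (HADHA and HADHB subunits) remove carbons in repeated rounds to give acetyl-CoA. In hepatocytes, part of this acetyl-CoA is turned into ketone bodies, and PPARα is known to switch on many of these genes during fasting. None of the 8 genes encodes a ketone-forming enzyme, and genes of ketone formation and use are therefore given below from a separate list.

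HADHA and HADHB are neighbours on chromosome 2, transcribed in opposite directions from RefSeq starts with 306 bases between them (2:26244632 and 2:26244939). The first sequence below, from RefSeq on GRCh38.p14, is the upstream window of HADHB, chr2:26244689-26244938 on the plus strand, with the 194 bases in capitals that also lie in the upstream window of HADHA. It is shown because both subunits of 1 enzyme share it. The second, chr17:7219688-7219937 on the plus strand, is that of ACADVL, the member with the highest level, with an ACGTG and a GCGTG in capitals, the letters of the core to which HIFs bind. The third, chr1:53196574-53196823 on the plus strand, is that of CPT2, the member with the lowest FDR under hypoxia, which holds neither set of letters.
HADHB upstream: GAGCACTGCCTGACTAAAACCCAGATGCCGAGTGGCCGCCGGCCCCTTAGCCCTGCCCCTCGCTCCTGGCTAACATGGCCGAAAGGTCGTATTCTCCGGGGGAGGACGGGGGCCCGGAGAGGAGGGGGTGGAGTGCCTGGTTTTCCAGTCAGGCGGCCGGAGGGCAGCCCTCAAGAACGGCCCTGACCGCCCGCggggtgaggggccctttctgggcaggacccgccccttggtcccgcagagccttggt
ACADVL upstream: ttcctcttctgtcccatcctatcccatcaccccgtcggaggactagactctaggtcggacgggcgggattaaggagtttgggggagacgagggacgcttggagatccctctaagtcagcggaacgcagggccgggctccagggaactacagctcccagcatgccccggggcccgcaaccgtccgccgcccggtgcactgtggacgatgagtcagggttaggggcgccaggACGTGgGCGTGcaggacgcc
CPT2 upstream: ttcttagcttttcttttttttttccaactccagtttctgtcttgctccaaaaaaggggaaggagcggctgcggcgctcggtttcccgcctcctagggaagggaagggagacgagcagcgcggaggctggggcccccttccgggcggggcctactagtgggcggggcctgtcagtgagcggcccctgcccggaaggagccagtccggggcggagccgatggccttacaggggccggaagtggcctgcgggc

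All 8 genes had windows in the RefSeq table, 10 in all, each running from 250 bases before a start to 50 bases after it. On either strand, ACGTG or GCGTG was in the windows of 5 of the 8 genes (ACADVL, ACADL, ACADM, CPT1A and PPARA), and in 48.4% of all 35116 windows. ACGTG alone was in 21.4% of all windows, where it can be part of an E-box (CACGTG), and GCGTG alone was in 36.5%. The first base of the ACADVL matches lay 20 and 14 bases before the start. The letters AGGTCA repeated after 1 base, a form of the PPAR element, was in none of the 10 windows and in 0.0228% of all windows. A match is a description of letters in the window, and no binding was measured in these data.

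Levels are given as CPM, the count of a gene scaled to a common library size with TMM factors, and a log2 fold change is a difference from the edgeR fit of the 9 libraries. Library totals lay between 6013980 and 40549699 counts. A gene was called when its Benjamini-Hochberg FDR was below 0.05 and its fold change above 1.5, a log2 value of 0.58. The labelled conditions could be checked with CA9, a standard HIF target, which lay at 27.9 ± 1.14 CPM (SD, n = 3) with vehicle at 20% O2, 580 ± 61.8 with vehicle at 1% O2 and 56.6 ± 5.68 with 32-134D. Replicate 3 of 32-134D stood apart from its group: among genes with a mean of at least 10 CPM, 6.91% were over 1.5-fold from the mean of replicates 1 and 2, against 0.0101% for replicate 2 over replicate 1. None of the 7 members above that level was, their ratios lying between 0.872 and 1.08, whereas 6 of 50 other pathway genes were, all lower. Only the 32-134D group was checked in this way. Replicate 1 of vehicle at 20% O2 also stood apart by its median absolute deviation from the group mean over these genes. That was 0.10 on the log2 scale for it and for replicate 3 of 32-134D, against 0.04 to 0.07 for the other libraries. The hepatocyte markers summed to 12669 to 13352 CPM with vehicle at 20% O2, 11146 to 13994 with vehicle at 1% O2 and 8444 to 12628 with 32-134D. Most of each sum was ALB and SERPINA1, so it does not show the smaller markers. AFP was called lower under hypoxia (-0.69, FDR 0.0186). TTR was called lower with 32-134D than with vehicle at 1% O2 (-0.92, FDR 0.0205), at 37.9, 34.5 and 9.79 CPM in replicates 1 to 3.

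Under hypoxia, the members differed by small amounts and in both directions. CPT2 and PPARA were lower at 1% O2 than at 20% O2 with vehicle, while CPT1A, ACADM and HADHA were slightly higher, and ACADVL, ACADL and HADHB did not pass the test. Called genes were 0 of the 8 by edgeR and 0 by DESeq2, against 19.5% of all genes tested called higher and 20.3% called lower. Without the fold threshold, 3 members were higher and 2 lower at an FDR below 0.05, against 27.9% and 25.6% of all genes. By DESeq2, 2 members had such an FDR (PPARA and CPT2), and the unadjusted p was below 0.05 for 5 members by edgeR and 4 by DESeq2. The median log2 fold change was 0.14 over the members and 0.00 over all genes.

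With 32-134D at 1% O2, PPARA was higher and HADHA lower than with vehicle, and the other 6 members did not pass the test. Again, 0 of the 8 genes were called by edgeR or DESeq2, against 16.2% of all genes called higher and 13.7% called lower. At an FDR below 0.05 and any fold, 1 member was higher and 1 lower, against 21.9% and 25.5% of all genes. DESeq2 gave 1 such member (PPARA), and the unadjusted p was below 0.05 for 2 members by edgeR and 3 by DESeq2. The median log2 fold change of the members was -0.10, and that of all genes was -0.01. Without replicate 3 of 32-134D the count called was again 0, and 4 members had an FDR below 0.05, namely PPARA (0.32, FDR 0.0164), CPT2 (0.23, FDR 0.0413), HADHA (-0.18, FDR 0.0364) and ACADVL (-0.17, FDR 0.0474).

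Between 32-134D at 1% O2 and vehicle at 20% O2, no member passed the edgeR test. The count was 0 of 8 by both tools, against 3.0% of all genes called higher and 0.516% called lower, and 7.81% and 2.44% at any fold. An unadjusted p below 0.05 was found for 1 member (CPT2) by each tool, and for DESeq2 its FDR was 0.0493. These 3 comparisons share groups, so their values are set side by side and are not independent.

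The precision was enough to bound most of these differences. The 95% interval of the log2 fold change lay within 1.5-fold in both directions for 5 of 8 members under hypoxia, 7 with 32-134D and 7 in the last comparison. Leaving out ACADL, the intervals reached from -0.69 to 0.44 under hypoxia, from -0.40 to 0.57 with 32-134D and from -0.52 to 0.35 between 32-134D and vehicle at 20% O2. Among the 9878 genes with a mean of at least 10 CPM, the interval lay within 1.5-fold for 36.3%, 45.8% and 80.7%, and 46.8%, 33.4% and 4.98% were called. The scale matters for differences of this size: when libraries were scaled to their totals and not by TMM, the median of all genes moved to -0.21 under hypoxia and to 0.17 with 32-134D, shifts close in size to the hypoxic differences of CPT1A, ACADM and HADHA.

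**Figure D1:**
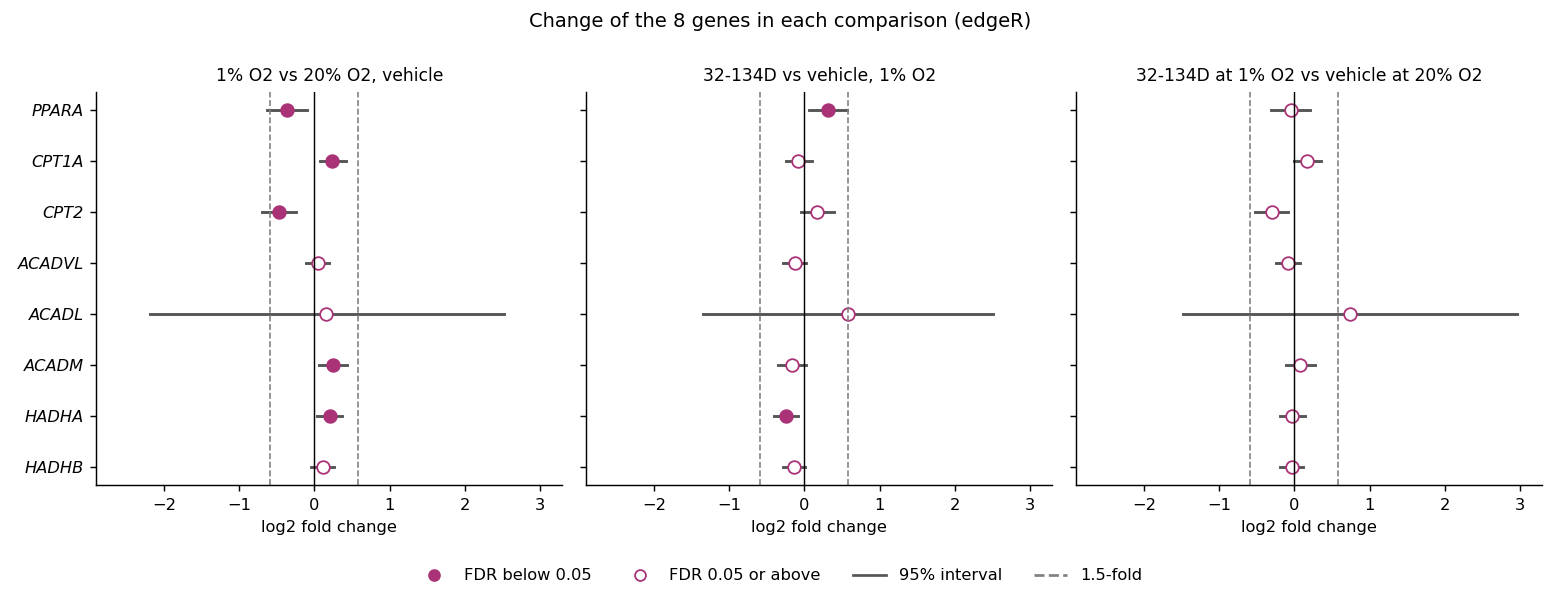
The log2 fold change (x axis) of each of the 8 genes (rows) in the 3 comparisons, with bars for the 95% interval, filled points for an FDR below 0.05 and dashed lines at 1.5-fold. No point with a filled symbol lies outside the dashed lines, and the interval of ACADL is the widest in each panel.

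PPARA (ENSG00000186951; chr22:46150521-46243756, plus strand, GRCh38), the receptor itself, was at 20.7, 27 and 30.0 CPM in replicates 1 to 3 of vehicle at 20% O2. With vehicle at 1% O2 it was at 21.3, 20.8 and 18.5 CPM, and with 32-134D at 24.5, 25.8 and 25.1 CPM. The 32-134D libraries all lay above those of vehicle at 1% O2, while replicate 1 of vehicle at 20% O2 lay among the latter, so that these 2 groups overlapped. The log2 fold change was -0.37 (SE 0.12, FDR 0.0204) under hypoxia, a 1.29-fold lower level. It was 0.32 (SE 0.12, FDR 0.0403) for 32-134D against vehicle and -0.05 (FDR 0.855) for 32-134D against vehicle at 20% O2. The hypoxic difference rested in part on single libraries: without replicate 3 or 2 of vehicle at 20% O2 it was -0.23 (FDR 0.169) or -0.34 (FDR 0.0569), and without replicate 3 of vehicle at 1% O2 it was -0.32 (FDR 0.0825). For 32-134D, 10 of 17 alternative fits kept the FDR below 0.05, as did 4 of the 9 that left out 1 library, and the difference stayed between 0.30 and 0.50 in all 17.

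CPT1A (ENSG00000110090; chr11:68754620-68844410, minus strand), the regulated first step of mitochondrial entry, was at 89.8, 108 and 111 CPM with vehicle at 20% O2. It reached 124, 119 and 123 CPM with vehicle at 1% O2 and 110, 120 and 117 CPM with 32-134D. All 3 hypoxic vehicle libraries were above all 3 at 20% O2, and those with 32-134D overlapped both groups. The log2 fold change under hypoxia was 0.24 (SE 0.08, FDR 0.0223), but it was 0.03 (FDR 0.780) with total library size and 0.20 (FDR 0.0657) by DESeq2. Of the 9 fits that left out 1 library, 5 kept the FDR below 0.05, and without replicate 1 of vehicle at 20% O2, the lowest, the difference was 0.10 (FDR 0.264). For 32-134D against vehicle it was -0.08 (FDR 0.478), and between 32-134D and vehicle at 20% O2 it was 0.17 (FDR 0.234).

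CPT2 (ENSG00000157184; chr1:53196429-53214197, plus strand), the second transferase of the shuttle, was at 25.7, 29.5 and 29.9 CPM with vehicle at 20% O2. It was at 21.8, 20.2 and 19.1 CPM with vehicle at 1% O2, below every library at 20% O2. With 32-134D it was at 25.2, 22.8 and 20.9 CPM, overlapping vehicle at 1% O2 and lying below vehicle at 20% O2. Under hypoxia the log2 fold change was -0.47 (SE 0.10, 95% interval -0.69 to -0.25, FDR 0.00117), a 1.39-fold lower level. The FDR was below 0.05 in all 17 alternative fits, and CPT2 passed 1.5-fold with total library size (-0.69, FDR 5.13e-05) and without replicate 1 of vehicle at 20% O2 (-0.60, FDR 5.13e-04). The values for 32-134D were 0.17 (SE 0.10, FDR 0.182) against vehicle at 1% O2 and -0.30 (SE 0.10, FDR 0.0784) against vehicle at 20% O2. An antisense gene, AL606760.2, covers 1151 bases or 11% of the annotated exons of CPT2. The strand setting of the counting was not given in the sources used here. Had it been unstranded, reads over these bases could not be told apart between CPT2 and AL606760.2. Whether such reads were then counted or dropped is not given either.

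Within each library, the 2 transferases therefore stood in different proportions, a ratio that does not depend on the scaling of the libraries. The count of CPT1A over that of CPT2 was 3.63 ± 0.118 (SD, n = 3) with vehicle at 20% O2, 6.00 ± 0.382 with vehicle at 1% O2 and 5.08 ± 0.634 with 32-134D. The ranges were 3.50 to 3.73, 5.69 to 6.42 and 4.37 to 5.59, and they did not overlap. This ratio and that of HADHA to HADHB were chosen after the counts were seen and are given with no test, as a description of unequal change and not of either gene alone.

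**Figure D2:**
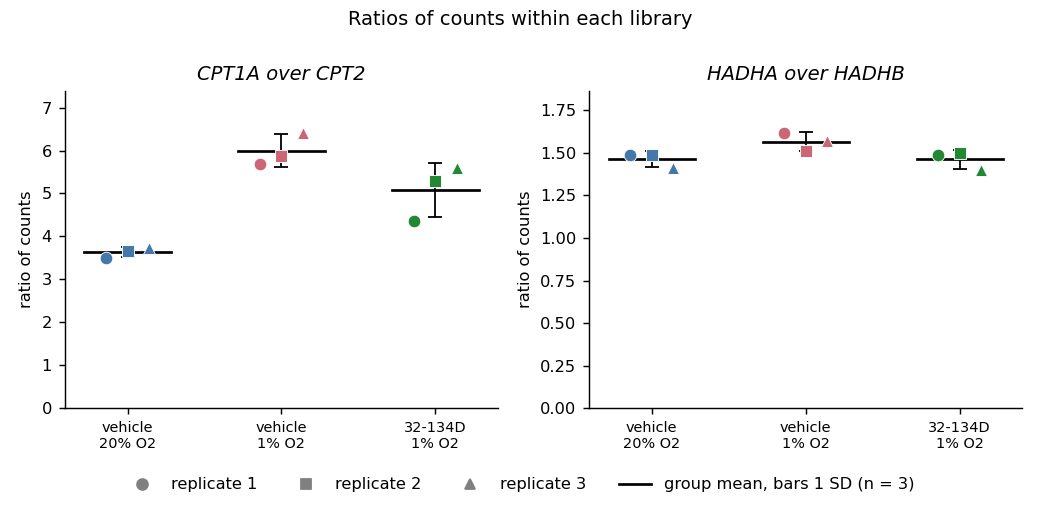
The ratio of counts (y axis) of CPT1A to CPT2 and of HADHA to HADHB in each library, with points for replicates and bars for the group mean and 1 SD. The CPT1A to CPT2 ratio is lowest with vehicle at 20% O2 (3.50 to 3.73) and highest with vehicle at 1% O2 (5.69 to 6.42), while the HADHA to HADHB ratio stays between 1.40 and 1.62.

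ACADVL (ENSG00000072778; chr17:7217125-7225273, plus strand), which acts on the longest chains, was at 378, 350 and 349 CPM with vehicle at 20% O2. It was at 346, 377 and 388 CPM with vehicle at 1% O2 and at 329, 330 and 356 CPM with 32-134D. The 3 groups overlapped one another. Its differences were 0.05 (SE 0.07, FDR 0.616) on the log2 scale under hypoxia, -0.13 (SE 0.07, FDR 0.146) with 32-134D and -0.09 (SE 0.07, FDR 0.515) in the last comparison. Its deposited counts, 80414 in all, were the most of any member. The gene DLG4 on the other strand shares 85 bases, 1.75% of its exons.

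ACADL (ENSG00000115361; chr2:210187939-210225491, minus strand), the long-chain enzyme, was almost without reads. The 9 libraries held 27 counts: 0, 0 and 5 with vehicle at 20% O2, then 8, 1 and 0 with vehicle at 1% O2, and 5, 6 and 2 with 32-134D. Its log2 fold change of 0.16 under hypoxia had an SE of 1.10 (95% interval -2.19 to 2.52), and that of 0.58 with 32-134D had an SE of 0.90 (FDR 0.634). No difference was detectable at this depth, and the direction under hypoxia changed between alternative fits, which ran from -1.84 to 4.32.

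ACADM (ENSG00000117054; chr1:75724347-75787575, plus strand), the medium-chain enzyme, was at 27, 29.4 and 27.5 CPM with vehicle at 20% O2. The hypoxic vehicle libraries held 35.0, 33.6 and 30.6 CPM, all above those at 20% O2. With 32-134D it was at 28.2, 31.8 and 28.4 CPM, overlapping both. The log2 fold change was 0.25 (SE 0.09, FDR 0.0307) under hypoxia, and 7 of 17 alternative fits, 4 of them with 1 library left out, kept the FDR below 0.05. With total library size it was 0.04 (FDR 0.777). For 32-134D it was -0.17 (SE 0.09, FDR 0.134), and against vehicle at 20% O2 it was 0.08 (FDR 0.643). RABGGTB, on the same strand, shares 157 bases or 3.28% of the exons of ACADM.

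HADHA (ENSG00000084754; chr2:26190635-26244726, minus strand), the α subunit with the hydratase and dehydrogenase activities, was at 116, 102 and 103 CPM with vehicle at 20% O2. It was at 128, 122 and 121 CPM with vehicle at 1% O2 and at 112, 106 and 96.9 CPM with 32-134D. The hypoxic vehicle libraries lay above all 6 others. Under hypoxia the log2 fold change was 0.21 (SE 0.08, FDR 0.0329), which became -0.00 (FDR 0.970) with total library size. For 32-134D against vehicle it was -0.24 (SE 0.08, 95% interval -0.40 to -0.08, FDR 0.0180), and -0.05 (FDR 0.628) with total library size. By DESeq2 the FDR was 0.0952 and 0.0590, and of the 9 fits that left out 1 library, 3 and 6 kept it below 0.05. The 2 processed pseudogenes, HADHAP1 and HADHAP2, held 3 and 1 counts in all.

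HADHB (ENSG00000138029; chr2:26243170-26290468, plus strand), the β subunit with the thiolase activity, was at 77.7, 68.8 and 72.8 CPM with vehicle at 20% O2. It was at 79.4, 80.6 and 77.2 CPM with vehicle at 1% O2 and at 74.9, 70.8 and 69.0 CPM with 32-134D. As for HADHA, the 32-134D libraries lay below the hypoxic vehicle libraries, whereas replicate 1 at 20% O2 lay within the range of the latter. Differences of 0.11 (SE 0.07, FDR 0.219) under hypoxia and -0.14 (SE 0.07, FDR 0.115) with 32-134D on the log2 scale did not pass the test. The ratio of HADHA to HADHB was 1.46 ± 0.0425 (SD, n = 3) with vehicle at 20% O2, 1.57 ± 0.0544 with vehicle at 1% O2 and 1.46 ± 0.0516 with 32-134D. The gene spans overlap at their 5′ ends, but their annotated exons share 0 bases.

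**Figure D3:**
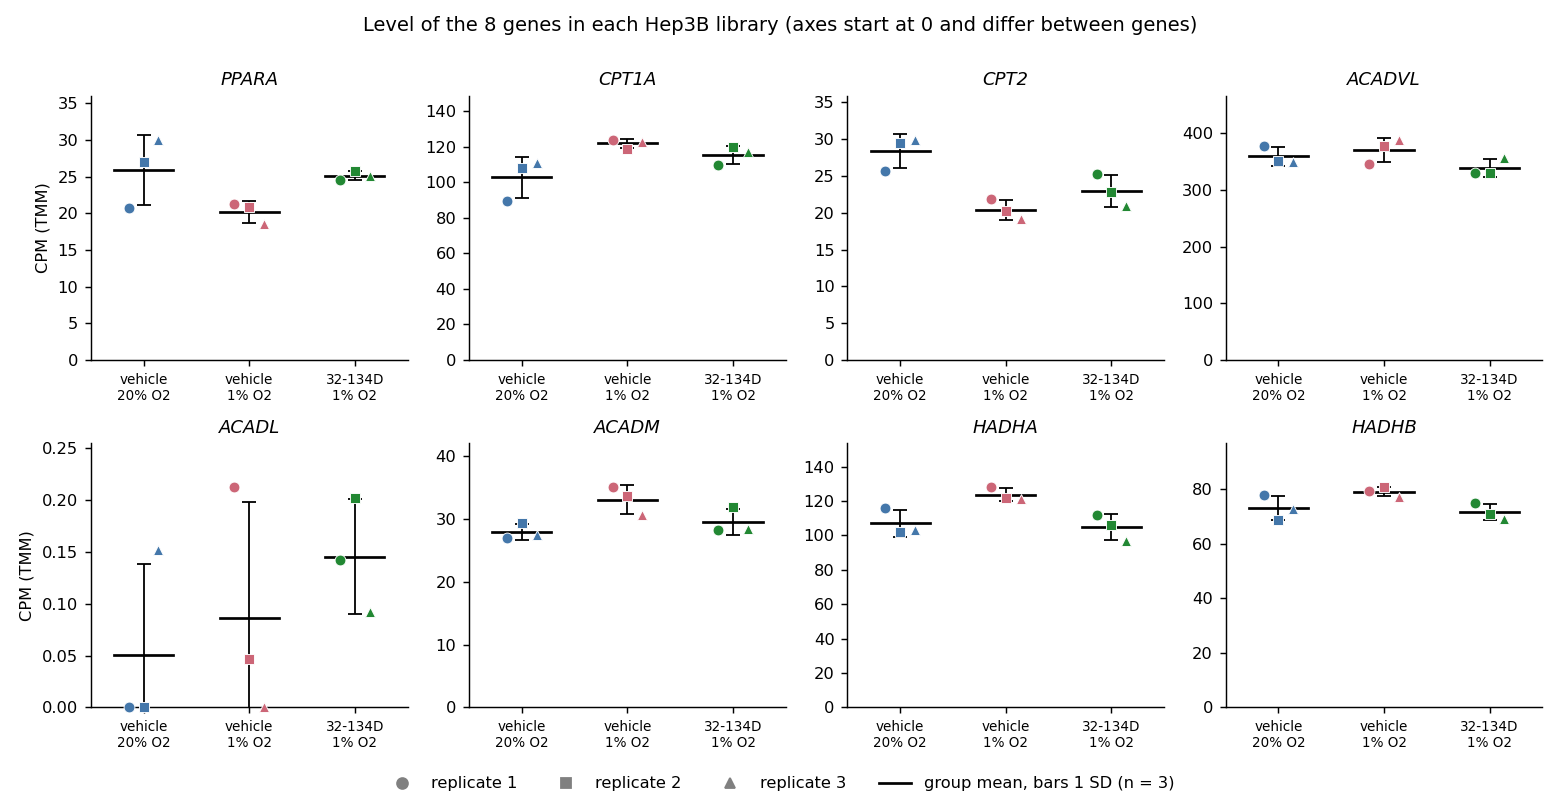
The level in CPM (y axis, from 0, a different scale for each gene) of the 8 genes in each of the 9 libraries, with the group mean and 1 SD. CPT2 is lower in all 3 hypoxic vehicle libraries than in the 3 at 20% O2, HADHA is higher in them than in the other 6, and ACADL stays at or below 0.212 CPM throughout.

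To compare levels between genes, CPM was divided by the length of all annotated exons in kilobases, which includes rarely used long ends, above all in CPT2 and PPARA (10452 and 13219 bases). Per kilobase, ACADVL was highest in each group, at 73.8 ± 3.38 CPM (SD, n = 3) with vehicle at 20% O2, followed by HADHA at 24.4 ± 1.78. HADHB (17.1 ± 1.04) and CPT1A (15.7 ± 1.75) came next and overlapped each other in that group. ACADM was at 5.85 ± 0.265, then CPT2 at 2.71 ± 0.222 and PPARA at 1.96 ± 0.359, and ACADL at 0.0116. The order of the means was the same in the other 2 groups apart from CPT1A and HADHB, which were at 18.6 ± 0.403 and 18.5 ± 0.403 with vehicle at 1% O2 and at 17.6 ± 0.782 and 16.7 ± 0.706 with 32-134D. These 2 genes overlapped in each group, while the libraries of every other pair of neighbours in the order did not.

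The genes nearest in pattern to each member were found from likeness measured as the Euclidean distance between centred log2 CPM over the 9 libraries, among genes with a mean of at least 10 CPM, as a description with no test. CDK12 and SETD2, both at 0.17, were nearest to PPARA. Those nearest to CPT2 were NT5DC3 (0.11) and CCNF (0.16), and to CPT1A they were FOXK2 (0.11) and PLAGL2 (0.14). ACADVL was nearest to TIMM50 (0.09) and MRPS15 (0.11), and ACADM to FAM149B1 (0.14) and ATG4A (0.15). IARS2 (0.11) and AP1S1 (0.12) were nearest to HADHA, and RPS6KA4 (0.08) and RRP36 (0.09) to HADHB. For ACADL, the nearest genes (TRPM4, 1.74, and PTPDC1, 1.79) were far from it, and its 27 counts leave the profile mostly to counting error.

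Other genes of fatty acid use were 68 in 7 lists, of which 66 were tested. Like the members, they were chosen with earlier results of these data known. Called genes were found among them in each comparison, but 66 genes leave more room for a call than the 8 members. Under hypoxia 10 rose and 23 fell (15.2% and 34.8%, against 19.5% and 20.3% of all genes). With 32-134D, 19 were higher and 8 lower than with vehicle (28.8% and 12.1%, against 16.2% and 13.7%). Between 32-134D and vehicle at 20% O2, 2 were higher (ANGPTL4 and FGF21) and 1 lower (BDH1), or 3.03% and 1.52% against 3.0% and 0.516% of all genes. Their median log2 fold change was -0.28 under hypoxia and 0.15 with 32-134D, and without replicate 3 of 32-134D 26 were called in place of 27. No test of the lists against other genes was made, and both comparisons share the libraries of vehicle at 1% O2.

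**Figure D4:**
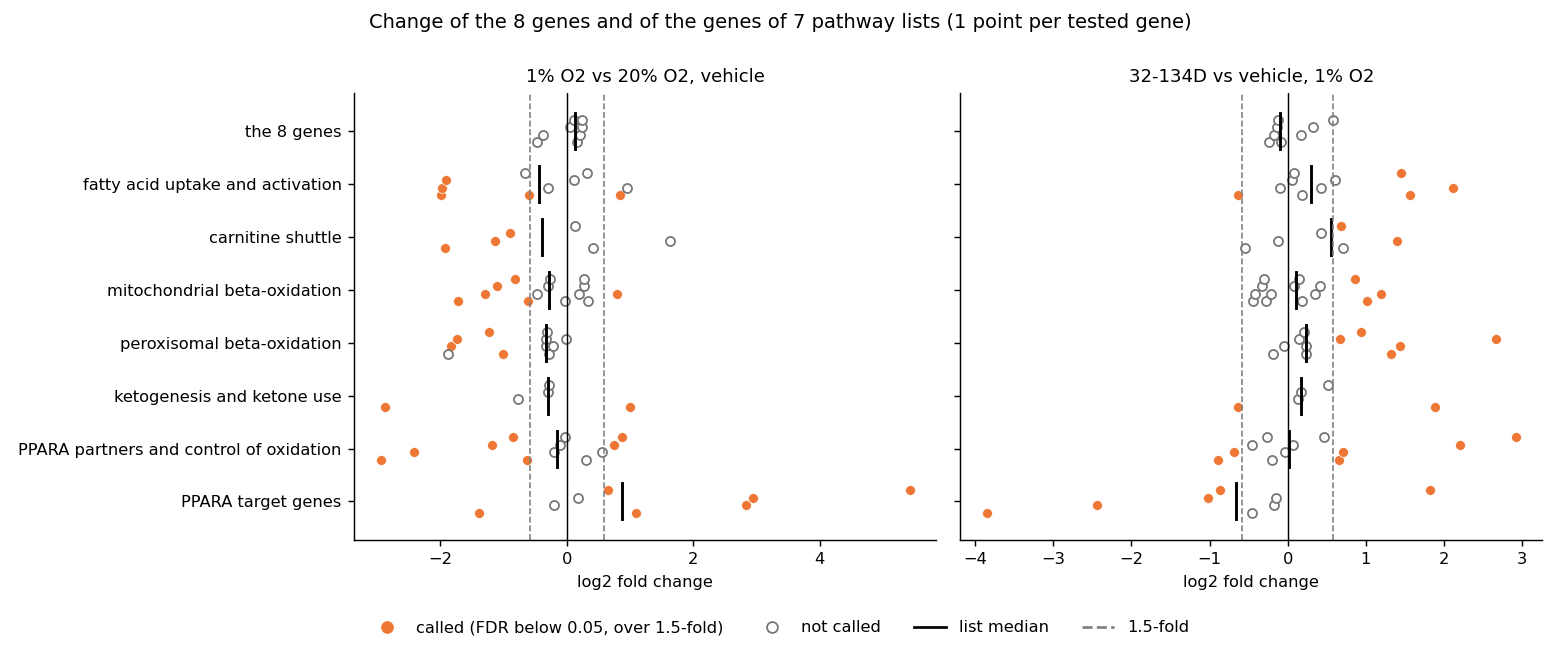
The log2 fold change (x axis) of each tested gene of the 8 members and of 7 pathway lists (rows) under hypoxia and with 32-134D, with filled points for called genes and a bar for each median. Among the 8 members (top row) no gene is called. Each list below holds called genes in both panels, and of all 66 tested genes 10 are higher and 23 lower under hypoxia. That is 15.2% and 34.8%, against 19.5% and 20.3% of all genes. Members and lists were chosen with earlier results of these data known.

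In uptake and activation, 1 of 10 genes rose under hypoxia and 4 fell (10.0% and 40.0%, against 19.5% and 20.3% of all genes). With 32-134D, 3 were higher and 1 lower (30.0% and 10.0%, against 16.2% and 13.7%). ACSL4, which activates long polyunsaturated fatty acids, was at 380, 385 and 392 CPM with vehicle at 20% O2, at 93.7, 99.6 and 98.2 CPM with vehicle at 1% O2, and at 354, 347 and 159 CPM with 32-134D. It fell by 1.99 on the log2 scale (SE 0.21, FDR 1.22e-06) and was 1.56 higher with 32-134D (SE 0.21, FDR 1.90e-05), or 1.85 higher without replicate 3. CD36, a fatty acid transporter, fell by 1.97 and was 1.45 higher with 32-134D (1.68 without replicate 3). ACSL6, another activating enzyme with 197 counts in all 9 libraries together, fell by 1.91 and was 2.12 higher with 32-134D, a call that was lost with counts thinned to the smallest library (1.37, FDR 0.0656). The gene that rose and was then lower was ACSL1, which activates long-chain fatty acids and was named after its values were seen. It rose by 0.85, and its decrease with 32-134D (-0.64, FDR 4.08e-05) was called in 8 of 17 alternatives, being under the fold threshold with DESeq2 (-0.58) and with total library size (-0.45), among others.

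In the carnitine shuttle beside CPT1A and CPT2, 0 of 6 genes rose under hypoxia and 3 fell. Those are 0% and 50.0%, against 19.5% and 20.3% of all genes. With 32-134D, 2 were higher and 0 lower (33.3% and 0%, against 16.2% and 13.7%). SLC25A20, the carrier that brings acylcarnitines across the inner membrane between CPT1A and CPT2, was at 18, 18.1 and 18.6 CPM with vehicle at 20% O2, 9.86, 8.44 and 11 CPM with vehicle at 1% O2, and 16.3, 16.8 and 13.7 CPM with 32-134D. It fell by 0.90 (SE 0.12, FDR 1.69e-05) and was 0.68 higher with 32-134D (FDR 2.49e-04). CROT, the peroxisomal octanoyltransferase, fell by 1.93 and was 1.40 higher with 32-134D, at 21.7, 24.0 and 7.96 CPM in its 3 replicates (1.74 higher without the last). CPT1B, known as the muscle form of CPT1, fell by 1.13, and its difference with 32-134D was 0.43 (FDR 0.110).

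Among 14 other genes of mitochondrial β-oxidation, 1 rose and 5 fell under hypoxia (7.14% and 35.7%, against 19.5% and 20.3% of all genes). With 32-134D, 3 were higher and 0 lower (21.4% and 0%, against 16.2% and 13.7%). The 3 that fell furthest belong to the acyl-CoA dehydrogenase family: ACADSB, for short branched chains, by 1.71 (FDR 2.41e-04), ACAD10 by 1.29 (FDR 2.85e-08) and ACAD9, also an assembly factor of respiratory complex I, by 1.10 (FDR 2.74e-08). With 32-134D they were 1.19, 1.01 and 0.86 higher than with vehicle. ACADSB was at 39.8 and 38.5 CPM in replicates 1 and 2 of 32-134D but at 12.1 CPM in replicate 3, within the range of 11.7 to 16.0 CPM of the hypoxic vehicle libraries, and without that library the difference was 1.55. These 3 values stand beside 0 calls for ACADVL, ACADL and ACADM of the same family, of which ACADL, with 27 counts, had an SE of 1.10 under hypoxia. Also of this family, ACADS was called lower under hypoxia (-0.81, FDR 2.27e-05) and ACAD11 was not called (-0.46, FDR 0.232).

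In peroxisomal β-oxidation, 0 of 11 genes rose under hypoxia and 4 fell (0% and 36.4%, against 19.5% and 20.3% of all genes). With 32-134D, 5 were higher and 0 lower (45.5% and 0%, against 16.2% and 13.7%). ACOX2, an oxidase for branched chains and bile acid precursors, fell by 1.83 and was 1.32 higher with 32-134D (1.54 without replicate 3). EHHADH, the peroxisomal bifunctional enzyme, fell by 1.73 (SE 0.15, FDR 2.06e-07) from 25.0, 19.9 and 25.8 CPM to 7.79, 7.78 and 6.01 CPM, and was at 22.5, 19.9 and 15.7 CPM with 32-134D, 1.44 higher (FDR 2.04e-06). ACOX3 fell by 1.22. The difference of 2.66 in ABCD2, a transporter, rested on few reads, at most 0.227 CPM in any library, and its FDR was 0.0687 by DESeq2 and 0.0718 without replicate 1 of 32-134D.

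Among the genes of ketone formation and use that are reported here, 5 were tested, of which 1 rose and 1 fell under hypoxia, and 1 was higher and 1 lower with 32-134D. That is 20.0% each way in both comparisons, against 19.5% and 20.3% of all genes under hypoxia and 16.2% and 13.7% with 32-134D. BDH1, which interconverts the ketone bodies acetoacetate and β-hydroxybutyrate, was at 13.1, 13.5 and 13.4 CPM with vehicle at 20% O2, 1.33, 1.89 and 2.32 CPM with vehicle at 1% O2, and 7.88, 8.82 and 3.06 CPM with 32-134D. The 3 groups did not overlap. It fell by 2.87 (SE 0.31, FDR 1.79e-06), was 1.88 higher with 32-134D (FDR 1.44e-04) and stayed 0.99 lower than with vehicle at 20% O2 (FDR 0.0343). That last call was lost without any 1 of the vehicle libraries at 20% O2 (FDR 0.0868, 0.103 and 0.117) or without replicate 2 of vehicle at 1% O2 (FDR 0.0564), and in a fit of only the groups compared (FDR 0.0791), and without replicate 3 of 32-134D the difference was -0.68 (FDR 0.00101). AACS, which activates acetoacetate for lipid synthesis, was the only gene of the list that rose, by 1.00 (FDR 6.90e-08), and it was lower with 32-134D (-0.64, FDR 7.56e-06), though by less than 1.5-fold in 4 of 17 alternatives: without replicate 1 of 32-134D (-0.57), when scaled by total counts (-0.46), under a filter of 10 counts per library (-0.55) and in a fit of only the groups compared (-0.58). The thiolase ACAT1 (-0.28), BDH2 (-0.29) and OXCT1 (-0.77), an enzyme of ketone use that hepatocytes are known to lack, were not called under hypoxia. With 32-134D their values were 0.13, 0.17 and 0.51, also not called.

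**Figure D5:**
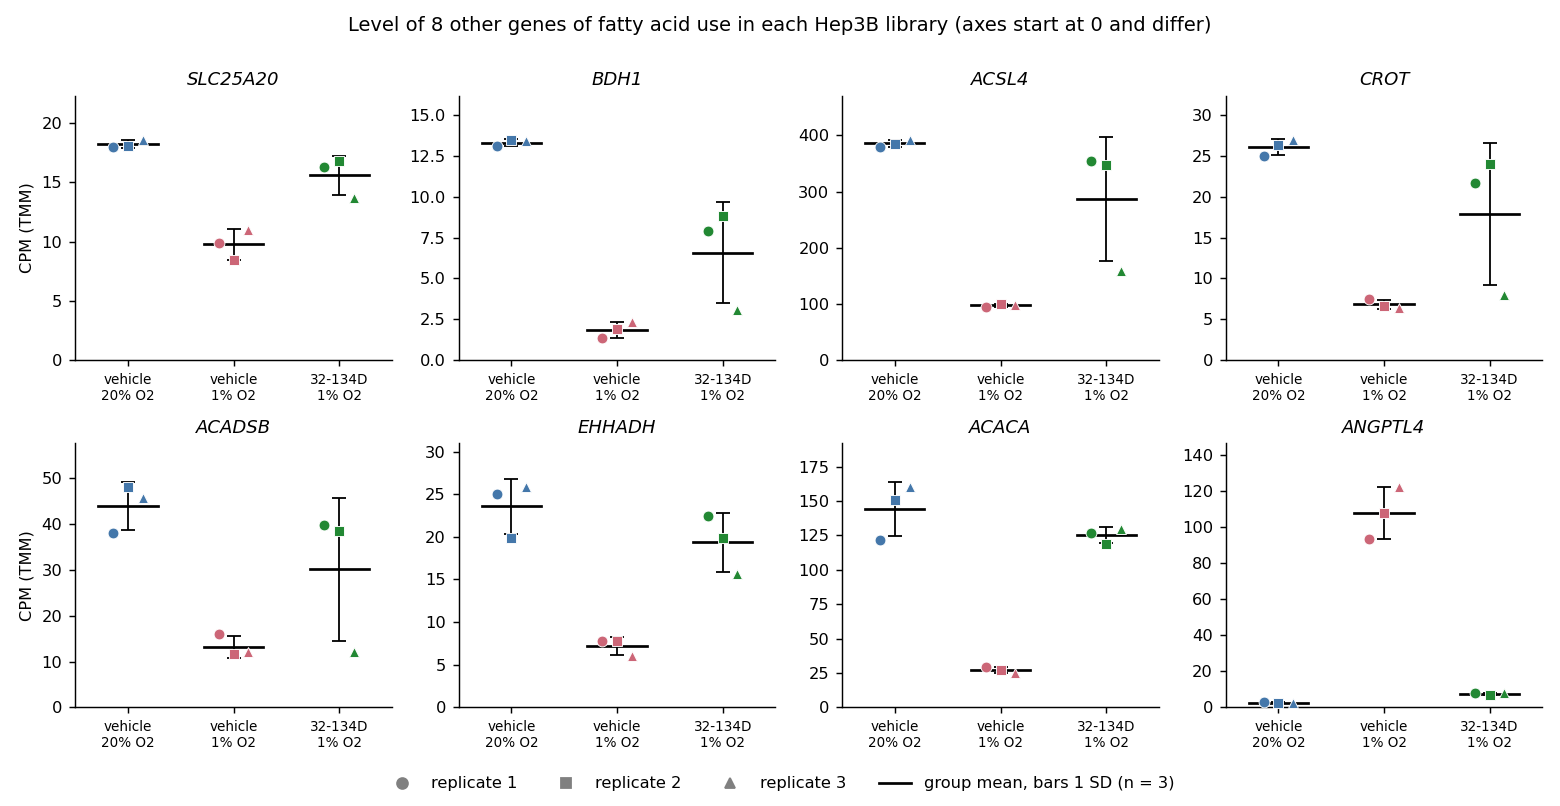
The level in CPM (y axis, from 0, a different scale for each gene) of 8 other genes of fatty acid use in each library, with the group mean and 1 SD, picked from the named genes after their values were seen. BDH1, ACSL4, CROT and ACADSB are low in replicate 3 of 32-134D compared with its replicates 1 and 2, while ACACA and ANGPTL4 are alike in all 3.

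Among 12 partners of PPARα and genes that control oxidation, 2 rose and 5 fell under hypoxia. Those are 16.7% and 41.7%, against 19.5% and 20.3% of all genes. With 32-134D, 4 were higher and 2 lower (33.3% and 16.7%, against 16.2% and 13.7%). ACACA, whose product malonyl-CoA inhibits CPT1A and which also starts fatty acid synthesis, was at 122, 151 and 160 CPM with vehicle at 20% O2, 29.2, 27.1 and 25.1 CPM with vehicle at 1% O2, and 127, 119 and 130 CPM with 32-134D. It fell by 2.41 (SE 0.10, FDR 1.36e-10) and was 2.20 higher with 32-134D (SE 0.10, FDR 9.48e-10). Its relative ACACB, named after its values were seen, fell by 0.85 (FDR 1.13e-04). With 32-134D, ACACB was 0.47 higher (FDR 0.0103), under the fold threshold and so not called. RXRA, a receptor that pairs with PPARα on DNA, fell by 1.18 (FDR 5.54e-06) and was 0.71 higher with 32-134D (0.91 without replicate 3). RXRB, of the same family and named after its values were seen, went the other way. It rose by 0.88 (FDR 3.85e-08) and was lower with 32-134D (-0.69, FDR 7.56e-07). That decrease was under the fold threshold with total library size (-0.50) and with thinned counts (-0.53). PPARGC1B, a coactivator, fell by 2.94 from at most 1.13 CPM and was 2.92 higher with 32-134D. Its relative PPARGC1A rose by 0.75 (FDR 0.00364), though with total library size the rise was 0.53, under the fold threshold. With 32-134D it was lower (-0.89, FDR 8.35e-04), at 10.2, 10.2 and 5.49 CPM in replicates 1 to 3. Without replicate 3 that difference was -0.66.

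Of 8 tested genes known as targets of PPARα, 5 rose and 1 fell under hypoxia. Those are 62.5% and 12.5%, against 19.5% and 20.3% of all genes. With 32-134D, 1 was higher and 4 were lower (12.5% and 50.0%, against 16.2% and 13.7%). CREB3L3, 1 of the 5 and named after its values were seen, rose by 0.65 (FDR 0.0111). Its vehicle libraries at 20% and 1% O2 overlapped, and its call was kept in 13 of 17 alternatives. ANGPTL4, an inhibitor of lipoprotein lipase, rose by 5.43 (SE 0.14, FDR 1.67e-12) from 2.87, 2.36 and 2.34 CPM to 93.3, 108 and 122 CPM, and was at 7.80, 6.87 and 7.82 CPM with 32-134D (-3.85, FDR 2.98e-11). PLIN2, a coat protein of lipid droplets, rose by 2.95 and was 2.44 lower on the log2 scale with 32-134D. FGF21, a liver hormone of fasting, rose by 2.83 from 4, 1 and 9 counts with vehicle at 20% O2 and was lower with 32-134D than with vehicle (-1.02, FDR 0.00347). With 32-134D it was 1.81 above vehicle at 20% O2 (FDR 0.00620), a call that was lost without replicate 3 of the latter (1.90, FDR 0.0503) and with thinned counts (1.39, FDR 0.311). ANGPTL4 and PLIN2 are also known HIF targets, so that this list does not separate the 2 factors. VNN1, the gene that fell (-1.39, FDR 0.0488), was below 0.7 CPM in each library, with 81 counts in all. The fall was not called by DESeq2 (FDR 0.0794) or in 6 of the 9 fits that left out 1 library. VNN1 was also the gene that was higher with 32-134D (1.82, FDR 0.00673), a call that was lost with thinned counts (1.28, FDR 0.237).

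The 4 endothelial and 4 leukocyte markers summed to at most 1.28 and 3.80 CPM in any library, with VWF and CD3E at 0 in all 9. Fibroblast markers summed to 32.9 to 37.5 CPM with vehicle at 20% O2, 13.3 to 14.8 with vehicle at 1% O2 and 28.9 to 30.5 with 32-134D, mostly PDGFRB, with DCN at or near 0. The fibroblast sums were lower under hypoxia, as were CPT2 and PPARA, while CPT1A, ACADM and HADHA were higher. The cells were of 1 line, so these sums are given as levels of the named genes and do not show another cell type. Their part in the results was not tested. In RNA from whole cultures, fewer cells of a kind and less RNA per cell cannot be told apart.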

How the data were processed

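RNA from Hep3B cells was sequenced in 9 libraries of 3 groups. The authors deposited raw read counts for Ensembl genes. They had trimmed reads with Bbduk, checked them with FastQC, mapped them with STAR (Ensembl release 100, GRCh38) and counted them with featureCounts. The strand setting and versions are not given in the sources used here. No column was left unmapped. Differences were then computed by edgeR 4.0.16 under R 4.3.3 (TMM scaling, quasi-likelihood test) over all 9 libraries together, for 22672 genes with counts summing to at least 10. Benjamini-Hochberg FDR was adjusted over all of them, with calls at an FDR under 0.05 and over 1.5-fold. The common biological coefficient of variation was 10.5%. Total counts of 6013980 to 40549699 limit the precision of genes with few reads, above all ACADL. Positions, exon lengths and overlaps came from GENCODE version 29, windows and sequences from RefSeq. Mean normalized levels are TMM CPM, and profiles used log2 CPM with a prior count of 2.

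The members and the gene lists were chosen with earlier results of these data known. The text names all members, up to 3 called genes with the largest change per list in each of the comparisons of hypoxia and of 32-134D, each tested gene of the list on ketone formation and use and 2 nearest genes per member. ACSL1, RXRB, ACACB and CREB3L3 were named beside these, after their values were seen. As alternatives, DESeq2 1.42.0, other scalings, low-count filters and fold thresholds were used, the 2 groups of a comparison were fitted alone, counts were thinned to the depth of the smallest library, the replicate number was added as a block, and each library was left out in turn. No replicate was a duplicate of another, the chi-square per degree of freedom between replicates being 1.64 to 40.5. Protein sequences were not used here, and the values of some genes are not reported here.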

Additional observations from a re-analysis of the deposited data

How the results depend on the processing

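The member counts of 0 held for the comparison of 32-134D with vehicle at 20% O2 in each alternative, and for hypoxia and 32-134D with DESeq2, RLE size factors, other low-count filters, fits of only the groups compared and thinning. With total library size, 1 member (CPT2) was called under hypoxia, and leaving out 1 library gave 0 to 1, the 1 being CPT2 without replicate 1 of vehicle at 20% O2. With no fold threshold the counts were 5 under hypoxia and 2 with 32-134D. Of 134 member fold changes per comparison, 132, 134 and 134 kept their side of the thresholds, and the other 2 were those of CPT2.

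For the other pathway genes, a fold threshold of 2 left 21 under hypoxia and 16 with 32-134D, and no fold threshold gave 42 with 32-134D. Between 32-134D and vehicle at 20% O2, where 3 were called, the count was 12 with no fold threshold and 1 to 6 with 1 library left out: 1 without replicate 3 of vehicle at 20% O2, and 6 without replicate 1 or replicate 2 of 32-134D. The causes were not tested, beyond the thresholds themselves. DESeq2 called 32, 25 and 4. Total library size moved the share of all calls that were higher from 49.0% to 34.5% under hypoxia and from 54.2% to 72.0% with 32-134D.

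No pairing by replicate number was seen (correlations of deviations between same-numbered libraries from -0.03 to 0.01). These were taken over all genes tested, many with few reads. Counting error in such genes brings correlations toward 0, so a weak pairing could be missed. With the replicate number as a replicate block, members called were 0, 0 and 0 and other pathway genes 33, 27 and 4. Without replicate 3 of 32-134D, NCOR1 (0.57) lost its call for 32-134D and PLIN2 (0.59) gained one against vehicle at 20% O2. Depth limits genes with few reads, such as CPT1C (17 counts in all 9 libraries), ABCD2 (22) and ACADL (27).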
